A study of Mus musculus with 16 samples.

Results

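miR-132-3p, miR-212-3p, miR-9-5p and miR-9-3p are mature microRNAs reported to rise when myeloid cells meet innate stimuli, and they were chosen here by their miRBase identifiers (MIMAT0000144, MIMAT0000659, MIMAT0000142 and MIMAT0000143). Of these 4 identifiers, 3 have a row among the 853 rows of the raw-count table, and miR-9-3p was not analysed here. The libraries hold small RNA from cDC1s (conventional dendritic cells of type 1, the cross-presenting subset), sorted from the spleen of C57BL6 mice with no stimulus named in the labels. There are 4 groups of 4 libraries: Xbp1 KO (called Xbp1-deficient), Xbp1-Ire1 KO (called compound-deficient), and WT libraries of each of these lines, told apart by the prefix of the sample description. The promoter or Cre that deletes the genes, the age of the mice and any pooling of mice are not stated in the labels. The comparisons ask whether the steady-state level of these microRNAs differs with loss of the transcription factor XBP1, or of XBP1 together with IRE1, the endoplasmic reticulum stress sensor whose ribonuclease splices Xbp1 mRNA.

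miR-132 and miR-212 are cut from 1 primary transcript whose transcription is known to respond to the cAMP-responsive factor CREB, and miR-132 is known in macrophages and monocytes as a microRNA that rises after Toll-like receptor or viral stimuli and restrains inflammatory signalling. miR-9 is best known from the developing nervous system. In human monocytes and neutrophils it is known to rise after lipopolysaccharide through MyD88 and NF-κB, and to target the NF-κB subunit gene NFKB1.

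The mature sequences, from RefSeq (build GRCm38.p6), are shown 5′ to 3′ with the seed, bases 2 to 8, in capitals, because the seed groups the members into 1 shared family and 2 single ones.
miR-132-3p: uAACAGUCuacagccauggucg
miR-212-3p: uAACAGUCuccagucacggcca
miR-9-5p: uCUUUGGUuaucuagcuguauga
miR-9-3p: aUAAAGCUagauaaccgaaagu
miR-132-3p and miR-212-3p hold the same seed, AACAGUC, and among 1679 mature microRNA names of that table only these 2 hold it. They are identical over the first 9 bases and differ at 5 of 22 positions, counted from the 5′ end with the base of miR-132-3p first: A10C, C14U, U17C, U20C and G22A. No other mature sequence of the table lies closer to either of them. The seeds of miR-9-5p and miR-9-3p are each held by 1 name. The closest other sequence to miR-9-5p is miR-9b-5p, at an edit distance of 4.

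The hairpins show where the members come from, with the annotated mature arms in capitals. Mir212 (chr11:75173388-75173478) and Mir132 (chr11:75173682-75173747), both on the plus strand of GRCm38.p6, are 203 bases apart. In GENCODE M21 both lie in an intron of the non-coding gene 1700016P03Rik, on the same strand.
Mir212: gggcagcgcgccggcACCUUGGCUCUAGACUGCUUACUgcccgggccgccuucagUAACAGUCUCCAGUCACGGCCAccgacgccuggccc
Mir132: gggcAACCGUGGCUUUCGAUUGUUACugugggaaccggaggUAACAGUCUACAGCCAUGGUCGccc
miR-9-5p has 3 loci, Mir9-1 (chr3:88215598-88215686), Mir9-2 (chr13:83738814-83738885) and Mir9-3 (chr7:79505264-79505353), each within a long non-coding gene of the same strand (Gm3764, C130071C03Rik and Mir9-3hg). Mir9-2 overlaps an exon in 2 of the 3 annotated transcripts there, and Mir9-1 and Mir9-3 overlap no exon of their hosts. The 3 hairpins differ outside the arms, while the arms are identical.
Mir9-1: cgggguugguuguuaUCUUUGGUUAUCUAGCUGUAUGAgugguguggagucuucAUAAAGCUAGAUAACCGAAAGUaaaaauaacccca
Mir9-2: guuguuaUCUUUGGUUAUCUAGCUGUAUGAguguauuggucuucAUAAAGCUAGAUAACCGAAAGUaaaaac
Mir9-3: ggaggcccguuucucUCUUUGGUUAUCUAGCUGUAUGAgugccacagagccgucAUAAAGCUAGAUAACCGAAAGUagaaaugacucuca
A count of miR-9-5p therefore cannot be assigned to one of these loci.

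Library totals ran from 175165 to 1403393 microRNA reads. edgeR's default filter on low counts left 255 microRNAs for testing. Names for the other identifiers were found neither in the files nor in the reference tables, so the defining microRNAs of blood, neural and other cell types could not be looked up, and the sorted cell type was not checked. In bulk RNA a smaller share of cells holding a microRNA and less of it per cell cannot be told apart.

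All 3 measured members were scarce. miR-132-3p was detected in 16 of 16 libraries, on 16 to 164 reads (median 67.5), and never made up more than 0.0159% of a library. Its level, in CPM (counts scaled to a common library total, with TMM factors), ran from 55.2 to 156 with a median of 95.7, and it ranked between 101 and 145 from the top of a library. miR-212-3p was also detected in 16 of 16 libraries, on 5 to 59 reads (median 19), at 10.4 to 60.2 CPM and ranks 139 to 231. miR-9-5p was detected in 13 of 16 libraries on at most 29 reads (median 6.5), at up to 27.4 CPM. By mean level these were ranks 115, 167 and 233 of the 255 microRNAs tested. miR-132-3p and miR-212-3p were thus low but always present, and miR-9-5p stood at the limit of detection in part of the libraries.

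**Figure D1:**
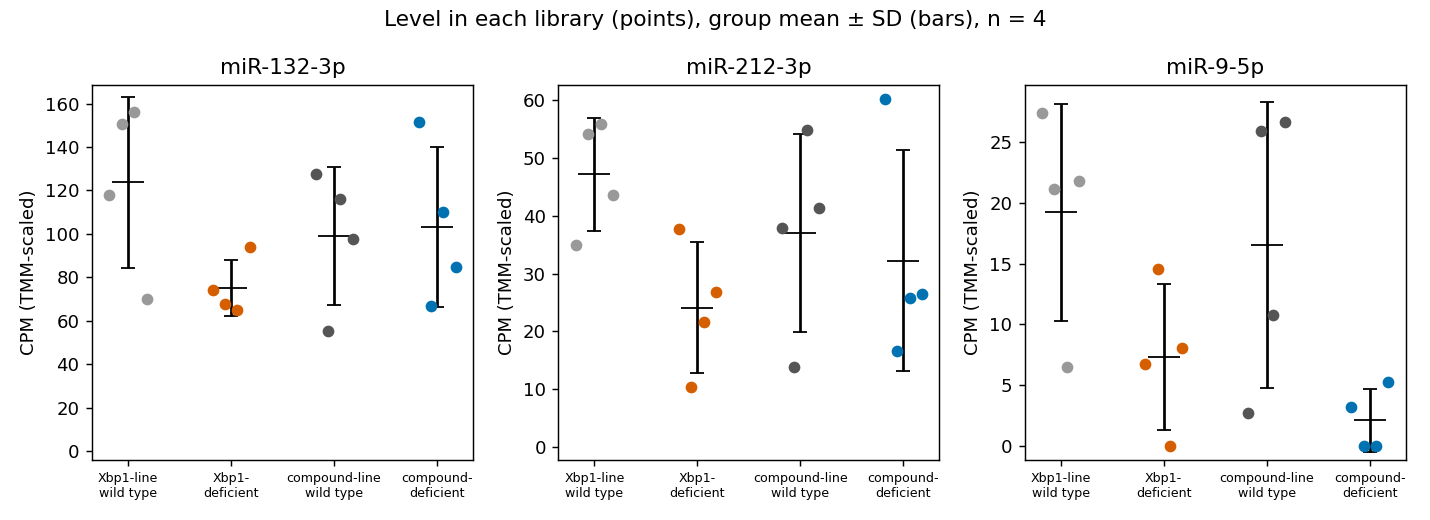
TMM-scaled CPM of miR-132-3p, miR-212-3p and miR-9-5p in each library by group; points are libraries, black bars the mean ± SD (n = 4). The Xbp1-deficient libraries sit low for miR-132-3p, at 65.1 to 93.8 CPM, and the compound-deficient libraries sit lowest for miR-9-5p, at 0 to 5.28 CPM, and in each comparison within a line the points of both groups overlap.

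For miR-132-3p the Xbp1-line wild type held 118, 151, 156 and 70.2 CPM in replicates 4, 5, 6 and 8. Xbp1-deficient cells held 74.3, 67.6, 65.1 and 93.8 CPM in replicates 1 to 4. Wild-type replicate 8 lay inside the range of the deficient libraries and the other 3 lay above it. The wild-type mean was 124 ± 39.5 CPM (SD, n = 4) and the Xbp1-deficient mean 75.2 ± 13.0, and edgeR put the log2 fold change at −0.73 with an SE of 0.31 and a 95% interval of −1.37 to −0.09. In edgeR's quasi-likelihood test the p was 0.0275 unadjusted and 0.242 after Benjamini-Hochberg adjustment over all 255 microRNAs, so the difference did not pass.

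In the compound line miR-132-3p stood at 127, 55.2, 116 and 97.5 CPM in wild-type replicates 1 to 4. Compound-deficient replicates 1 to 4 held 151, 66.7, 110 and 84.6 CPM. Both groups spread over nearly the same range. The means of 99.1 ± 31.7 and 103 ± 36.8 CPM (SD, n = 4) put the log2 fold change at 0.09 (SE 0.32, interval −0.57 to 0.76), with an edgeR adjusted p of 0.954. The interval leaves room for a fold of 0.674 to 1.69.

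miR-212-3p, the seed partner of miR-132-3p, stood at 34.9, 54.2, 56.0 and 43.6 CPM in Xbp1-line wild-type replicates 4, 5, 6 and 8. In Xbp1-deficient replicates 1 to 4 it stood at 37.7, 10.4, 21.7 and 26.8 CPM. Only deficient replicate 1 reached the wild-type range, just above wild-type replicate 4. The mean was 47.2 ± 9.82 CPM (SD, n = 4) against 24.1 ± 11.3. The log2 fold change was −0.96 (SE 0.45, interval −1.91 to −0.01), with an edgeR p of 0.0469 unadjusted and 0.299 adjusted, which did not pass.

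In the compound line miR-212-3p stood at 37.9, 13.8, 54.9 and 41.4 CPM in wild-type replicates 1 to 4, and at 60.2, 16.7, 25.7 and 26.4 CPM in compound-deficient replicates 1 to 4. The highest value of all 16 libraries was in a deficient library, and the ranges overlapped almost wholly. The means of 37.0 ± 17.1 and 32.2 ± 19.1 CPM (SD, n = 4) put the log2 fold change at −0.13 (SE 0.48, interval −1.13 to 0.86; edgeR adjusted p 0.954). It was −0.77 without compound-deficient replicate 1, the library with that highest value.

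miR-9-5p rested on few reads, so its raw counts come first. Xbp1-line wild-type replicates 4, 5, 6 and 8 held 29, 23, 5 and 9 reads, and Xbp1-deficient replicates 1 to 4 held 7, 14, 0 and 6 reads. The 0 was in Xbp1-deficient replicate 3, the deepest of all 16 libraries, where a count of 0 allows up to 2.14 CPM of the unscaled total, taking 3 reads as the upper limit of every count of 0 here. The lowest wild-type library of the line, replicate 6, stood at 6.64 CPM on that scale. Scaled levels were 27.4, 21.1, 6.51 and 21.8 CPM in the wild-type and 6.76, 14.6, 0 and 8.04 CPM in the deficient libraries, in the same order. They averaged 19.2 ± 8.91 CPM (SD, n = 4) and 7.34 ± 5.97. Only wild-type replicate 6 was as low as the deficient libraries, and 3 of these 4 lay inside the wild-type range. The log2 fold change was −1.40 (SE 0.82, interval −3.12 to 0.32), with an edgeR adjusted p of 0.458. It was −2.01 and −0.93 without Xbp1-deficient replicates 2 and 3, and −2.30 with limma voom. None of these passed.

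In the compound line miR-9-5p had 1, 15, 10 and 9 reads in wild-type replicates 1 to 4, or 2.71, 25.9, 10.8 and 26.6 CPM. Compound-deficient replicates 1 to 4 had 3, 0, 0 and 1 reads, or 3.22, 0, 0 and 5.28 CPM. A count of 0 allows up to 7.87 and 5.34 CPM of the unscaled total in deficient replicates 2 and 3. Wild-type replicate 1, on a single read, lay below 2 of the deficient libraries, and the other 3 wild-type libraries lay above all 4 deficient ones. Wild-type libraries averaged 16.5 ± 11.7 CPM (SD, n = 4) and compound-deficient ones 2.13 ± 2.60. The log2 fold change was −2.99, with an SE of 1.11 and an interval of −5.31 to −0.66, and its edgeR p was 0.0145 unadjusted and 0.132 adjusted, which did not pass. Without compound-deficient replicate 1, which held 3 of the group's 4 reads, it was −3.91 (edgeR adjusted p 0.155). It was −2.64 without compound-deficient replicate 3 and −2.41 with limma voom, neither of which passed.

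Summed over a group, miR-9-5p had 4 of 2096168 reads in compound-deficient cells against 35 of 2074428 in their wild type, a ratio of rates of 0.113 with an exact conditional 95% interval of 0.0292 to 0.316. In the Xbp1 line it had 27 of 4262383 reads in deficient cells against 66 of 3303053, a ratio of 0.317 (0.195 to 0.503). These intervals cover counting error only. Between libraries of 1 group the counts of miR-9-5p mostly spread more than that, by chi-square against equal rates divided by its degrees of freedom. It came to 3.08 for the Xbp1-line wild type, 4.40 for the compound-line wild type and 6.39 for Xbp1-deficient cells. For compound-deficient cells it came to 1.27, on 4 reads, too few to show such a spread. The filter on low counts was also unevenly met. It asks for about 13.0 CPM of the unscaled total in 4 libraries, and miR-9-5p reached that in 3 Xbp1-line wild-type, 1 Xbp1-deficient, 2 compound-line wild-type and 0 compound-deficient libraries, so it entered the test mainly through the groups where it was high.

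**Figure D2:**
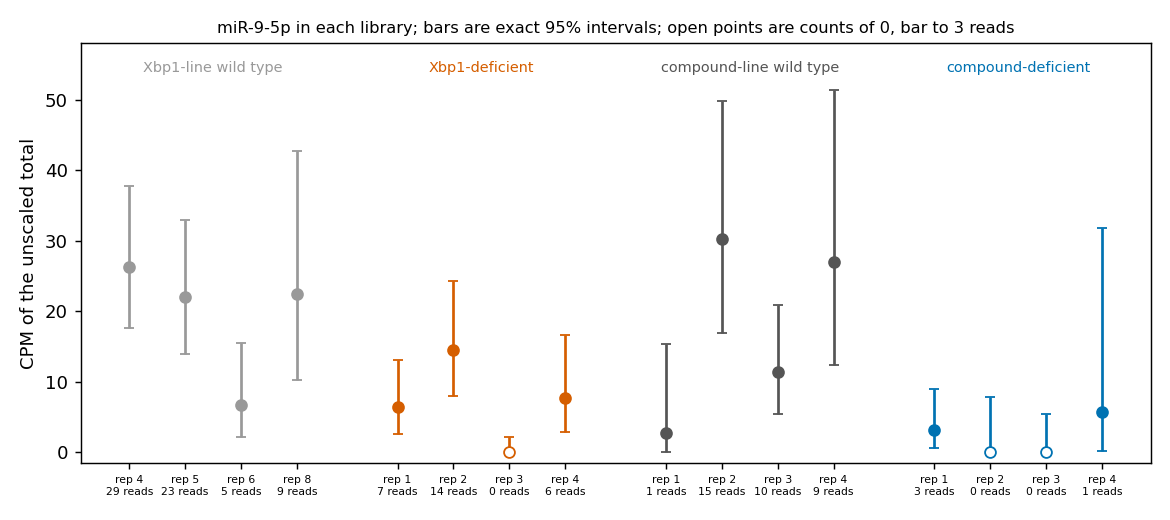
CPM of miR-9-5p on the unscaled total of each library with exact 95% binomial intervals, or for a count of 0 the limit of 3 reads, which cover counting error only; the number of reads stands under each library. The 3 open points are libraries with a count of 0, of which 1 is Xbp1-deficient and 2 are compound-deficient. The highest compound-deficient value, 5.71 CPM, rests on 1 read.

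The mean of both lines' changes, which uses all 16 libraries, gave −2.19 for miR-9-5p (SE 0.69, interval −3.64 to −0.75), a fold of 0.218. Its edgeR p was 0.00507 unadjusted and 0.0587 adjusted, just outside the threshold of 0.05. This call depended on the processing. The adjusted p was 0.0199 in DESeq2, 0.0357 in edgeR without the filter, 0.0430 with total counts alone and 0.0461 with upper-quartile scaling, while limma gave 0.0867 with voom weights and 0.105 on the authors' deposited log2 values. Over all microRNAs the mean change passed for 33 of 255 in DESeq2 and 30 of 808 without the filter. With total counts alone it passed for 27 of 255, and with upper-quartile scaling for 25 of 255. The edgeR fit with filter and TMM scaling gave 19 of 255, limma voom 17 of 255 and limma on the deposited values 17 of 473. In edgeR miR-9-5p passed at 0.0485 without Xbp1-deficient replicate 2 and at 0.0430 without compound-line wild-type replicate 1, and leaving out any other library gave 0.0612 or more. The log2 fold change itself stayed between −2.64 and −2.003 over all of these. The same mean was −0.32 for miR-132-3p (SE 0.22, edgeR adjusted p 0.436) and −0.55 for miR-212-3p (SE 0.33, edgeR adjusted p 0.372). It repeats the libraries of the comparisons within each line and is no independent support for them.

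**Figure D3:**
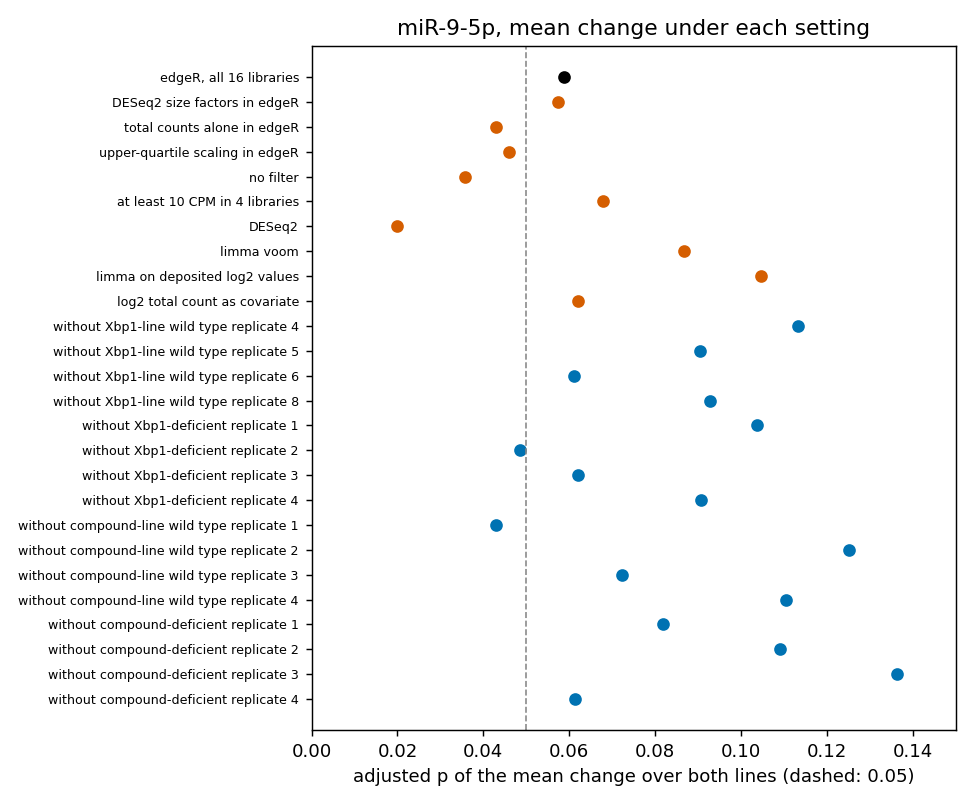
Adjusted p of the mean change of miR-9-5p over both lines under each setting; the black point is edgeR on all 16 libraries, orange points use another scaling, filter, model or tool (the limma points and DESeq2 change several steps at once) and blue points leave out 1 library. Leaving out a library also reran the filter, which then left 264 to 269 microRNAs for testing in place of 255. The points lie on both sides of the dashed threshold of 0.05, from 0.0199 to 0.136.

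With the filter, TMM scaling and all 16 libraries, 0 of the 3 members passed in edgeR in any of the 6 comparisons. In Xbp1-deficient cells against wild type 2.35% of all 255 microRNAs passed, and 2 of the 3 members had an unadjusted p under 0.05, as did 15.7% of all. The corresponding values in compound-deficient cells were 5.88%, 1 of the 3 members and 20%, and for the mean of both changes 7.45%, 1 of the 3 and 21.6%. DESeq2 called 1 of the 3 members, miR-9-5p in the mean of both changes, where it called 33 of all 255 microRNAs. With limma voom 0 of the 3 members passed in any comparison, and 17 of all 255 microRNAs passed in the mean of both changes. All 3 log2 fold changes were negative in Xbp1-deficient cells, where 54.9% of all microRNAs were, with a median of −0.96 against −0.07 over all 255. In compound-deficient cells 2 of the 3 were negative, where 47.5% of all were, with a median of −0.13 against 0.04. In none of the 4 pairs of groups compared did the ranges of a member stand apart. Over all microRNAs they did for 11.8% in the Xbp1 line, 9.8% in the compound line, 11.8% for compound- against Xbp1-deficient cells and 4.31% for the wild types.

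**Figure D4:**
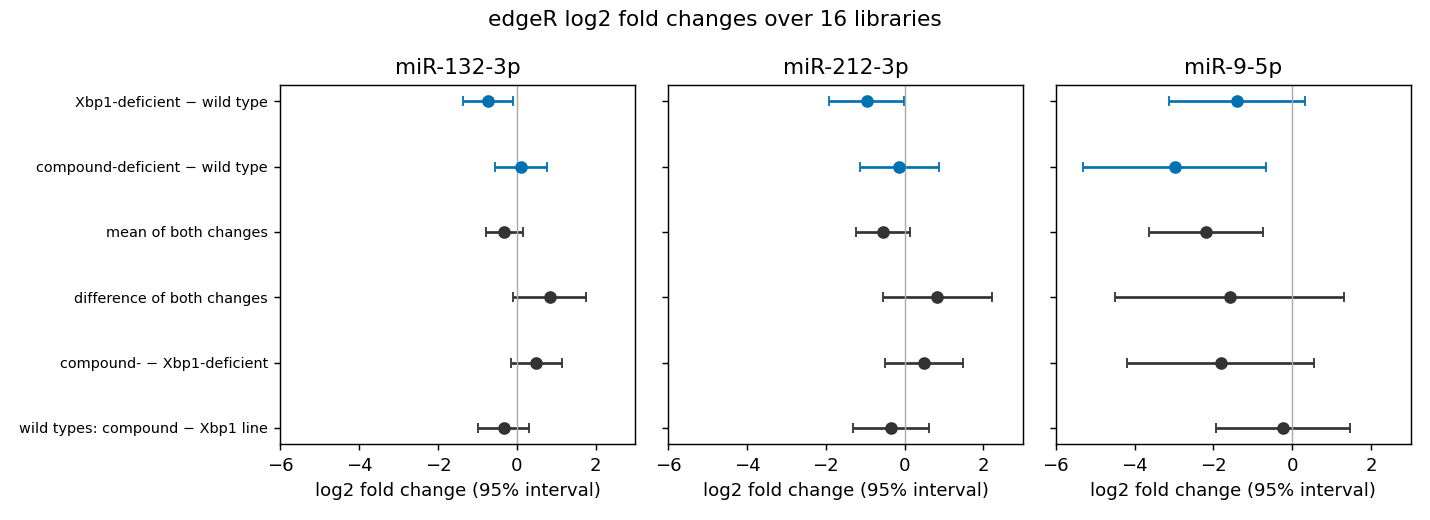
edgeR log2 fold changes of the 3 members in the 6 comparisons (horizontal axis, log2 scale) with 95% intervals from the fit of 16 libraries. The intervals exclude 0 for miR-132-3p and miR-212-3p in Xbp1-deficient cells and for miR-9-5p in compound-deficient cells and in the mean of both changes, before any adjustment over the 255 microRNAs.

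Whether the lines differed in their changes was tested directly as the compound-deficient change minus the Xbp1-deficient one. It was 0.83 for miR-132-3p (SE 0.44, interval −0.10 to 1.75), with an edgeR p of 0.0759 unadjusted and 0.587 adjusted. For miR-212-3p it was also 0.83 (SE 0.65, interval −0.54 to 2.21; edgeR adjusted p 0.809), and for miR-9-5p it was −1.58 (SE 1.38, interval −4.49 to 1.32; edgeR adjusted p 0.843). Without compound-deficient replicate 1 these differences were 0.48 for miR-132-3p, 0.18 for miR-212-3p and −2.55 for miR-9-5p. For miR-9-5p limma gave −0.10 with voom weights and −0.54 on the authors' deposited log2 values. In this comparison 0% of all microRNAs passed in edgeR and 10.2% had an unadjusted p under 0.05, against 0 of the 3 members. The members' lower values in 1 line were therefore not shown to be particular to it.

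Between the deficient genotypes, compound minus Xbp1, miR-132-3p and miR-212-3p both gave a log2 difference of 0.49 (SE 0.31 and 0.47, edgeR adjusted p 0.456 and 0.630), and miR-9-5p gave −1.81 (SE 1.13, edgeR adjusted p 0.443). Without compound-deficient replicate 1 the difference was 0.14 for miR-132-3p, −0.16 for miR-212-3p and −2.76 for miR-9-5p. For miR-9-5p limma gave −0.51 with voom weights and −0.89 on the authors' deposited log2 values. Here 7.45% of all microRNAs passed, and 17.3% of all and 0 of the 3 members had an unadjusted p under 0.05. Between the wild types, compound line minus Xbp1 line, the log2 difference was −0.34 (SE 0.31) for miR-132-3p, −0.34 (SE 0.46) for miR-212-3p and −0.23 (SE 0.81) for miR-9-5p, with edgeR adjusted p of 0.784, 0.903 and 0.956, where 0% of all microRNAs passed and 9.41% had an unadjusted p under 0.05, with 0 of the 3 members among them.

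Ordered by mean level, miR-132-3p was highest in the Xbp1-line wild type, followed by compound-deficient cells, the compound-line wild type and Xbp1-deficient cells. miR-212-3p had the same first and last groups, with the compound-line groups in between in the other order. miR-9-5p was highest in the Xbp1-line wild type, then the compound-line wild type, Xbp1-deficient cells and compound-deficient cells. For each member, neighbours in its order differed by less than the larger of their SDs.

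miR-132-3p and miR-212-3p varied together from library to library. Over the 16 libraries their log2 CPM correlated with a Pearson's r of 0.78 (permutation p 0.00038) and a Spearman's rho of 0.79 (permutation p 0.00044), 1 relation tested, from 100000 resamples. Without compound-line wild-type replicate 2 and Xbp1-line wild-type replicate 6, the 2 libraries farthest from the median of miR-132-3p, r was 0.70 (n = 14). With each group's mean taken out, r was 0.72. The resampling shuffled over all 16 libraries without regard to group, so its p does not apply to that value. Both values of a library share its total and scaling. Among 254 other tested microRNAs, miR-212-3p had the highest r with miR-132-3p, and miR-132-3p the highest with miR-212-3p, also after the group means were taken out. The next for both were MIMAT0004668, with r of 0.68 and 0.71, and MIMAT0017053, with r of 0.64 and 0.64.

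**Figure D5:**
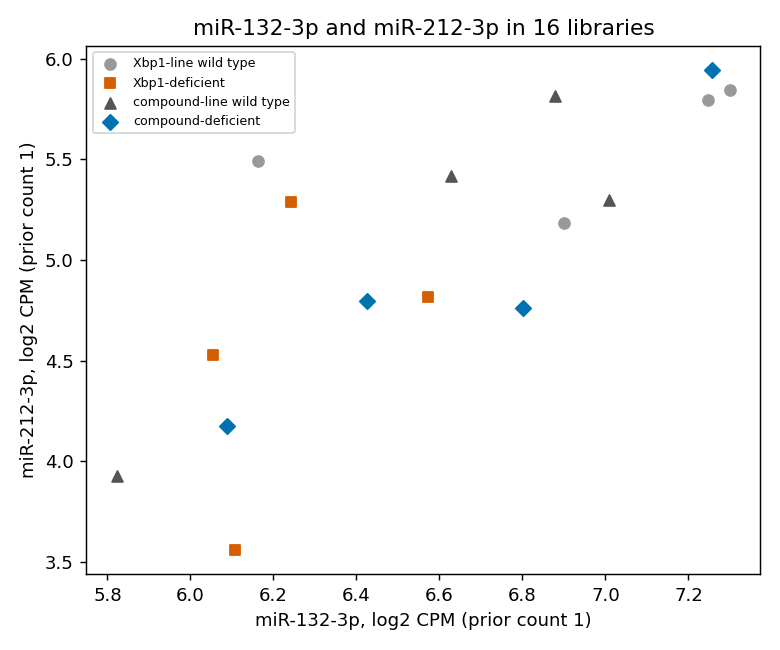
log2 CPM of miR-212-3p (vertical) against miR-132-3p (horizontal) in 16 libraries, with colour and shape giving the group. Libraries high in one tended to be high in the other, as for compound-deficient replicate 1 at the upper right and compound-line wild-type replicate 2 at the lower left. In the Xbp1 line the order was less alike. The lowest wild-type library was replicate 8 for miR-132-3p and replicate 4 for miR-212-3p. The highest deficient library was replicate 4 for miR-132-3p and replicate 1 for miR-212-3p.

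The ratio of both members within a library does not depend on scaling. Over all libraries there were 1192 reads of miR-132-3p and 421 of miR-212-3p, a ratio of 2.83 (exact 95% interval 2.53 to 3.17, counting error only). In the Xbp1 line the pooled ratio was 2.79 (2.32 to 3.37) for the wild type and 3.05 (2.42 to 3.88) for the deficient libraries. In the compound line it was 2.53 (1.96 to 3.28) for the wild type and 2.98 (2.30 to 3.88) for the deficient libraries. Single libraries ran from 1.61, in Xbp1-line wild-type replicate 8, to 6.50, in Xbp1-deficient replicate 2, which had 10 reads of miR-212-3p. Over the 16 libraries the split between both members spread little beyond counting noise (1.51 by chi-square over its degrees of freedom). By comparison, the level of miR-132-3p within a group spread by 2.46 to 7.55 and that of miR-212-3p by 2.59 to 5.71 on the same measure. That measure grows with the number of reads, and for the split it is limited by the rarer member. Its smaller value for the split therefore does not by itself show that the ratio was steadier than the levels.

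miR-9-5p did not follow the pair. Its r was 0.04 with miR-132-3p and 0.18 with miR-212-3p, ranks 99 and 69 among its 254 partners. The 3 microRNAs most like it over the 16 libraries were MIMAT0000531, with r of 0.76, MIMAT0000133, with r of 0.75, and MIMAT0000212, with r of 0.67. With the group means taken out these r were 0.42, 0.55 and 0.39. All of these rest on log2 values in which the 3 libraries with a count of 0 are set by the prior count of 1, and on few reads in the rest.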

How the data were processed

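Small RNA reads of 16 libraries were analysed from 2 deposited tables with 1 column per sample, none pooled. Per the submitters' processing notes the tools were Bowtie 1.1.2, limma 3.42.2, cutadapt 1.8.1 and FastQC 0.11.3, and the builds GRCm38 and mm10 are named; the role of each, the microRNA release and how reads with several matches were handled are details not given in the sources. The authors deposited raw counts of reads for 853 microRNAs, and log2 values for 473 of them, which from the values equal log2 CPM of the count plus 0.5 on TMM-scaled library sizes. Per the labels' protocols, 5000 to 50000 cells were sorted per sample. Molecular identifiers are not named, so counts may hold PCR copies. Intervals of single libraries and of pooled reads cover counting error only, while those of log2 fold changes also take in the spread between libraries.

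Groups came from the sample descriptions. The labels do not say that replicates are separate mice, and p-values reflect only how these samples spread, possibly for technical reasons. Counts were tested with edgeR 4.0.16 (R 4.3.3): TMM scaling, filterByExpr with a count minimum of 10, 1 quasi-likelihood fit with 4 group means over 16 libraries, without a replicate block, two-sided, with Benjamini-Hochberg adjustment over 255 microRNAs and a threshold of 0.05. An SE is the fold change's size on the log2 scale divided by the root of F. log2 CPM used a prior count of 1. DESeq2 1.42.0 and limma 3.58.1 were alternatives; the steps were tested on simulated data. Named were the members and, for each, the 3 microRNAs of highest Pearson's r with it. The partner arms, other stimulus-inducible microRNAs and cell type markers listed for lookup matched 0 identifiers and were not analysed here. The members, lists and comparisons were chosen with earlier results of these data known.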

Additional observations from a re-analysis of the deposited data

How the results depend on the processing

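Of 178 alternative values of the 18 log2 fold changes, 171 kept their direction and their side of the threshold. DESeq2 gave no adjusted p for miR-212-3p and miR-9-5p in the difference of changes, nor for miR-9-5p between the deficient genotypes. These values are among the 171, counted as not passing. The mean change of miR-9-5p passed in 4: −2.30 with total counts alone, −2.28 with upper-quartile scaling, −2.20 without the filter and −2.27 in DESeq2. The compound-deficient change of miR-132-3p turned to −0.012 with total counts alone and −0.17 with upper-quartile scaling, and that of miR-212-3p to 0.024 with limma voom; the cause was not tested. With 1 library left out, 183 of 192 values kept both. The range was −2.64 to −2.003 for the mean change of miR-9-5p, −0.23 to 0.21 and −0.77 to 0.11 for the compound-deficient changes of miR-132-3p and miR-212-3p, −0.16 to 0.69 for miR-212-3p between the deficient genotypes and −0.58 to 0.15 for miR-9-5p between the wild types. The replicate block gave 0.07, −0.21 and −2.64 for miR-132-3p, miR-212-3p and miR-9-5p in the compound line and 0.44, 0.41 and −1.68 between the deficient genotypes, and changed no call of a member; it moved the calls over all microRNAs from 15 to 17 and from 19 to 12. Whether replicate numbers pair the samples is not stated in the labels, and correlations between libraries do not settle it. In the compound line 2 of 4 same-numbered pairs had an r over 0.1 (range −0.26 to 0.26). There 2 of 4 wild-type libraries correlated best with their own number. With all libraries kept, the calls over all microRNAs ranged from 5 to 18 in the Xbp1 line, 9 to 24 in the compound line, 17 to 33 for the mean change, 3 to 32 between the deficient genotypes, 0 to 5 for the difference of changes and 0 to 14 between the wild types. With 1 library left out in edgeR they ranged from 2 to 8, 6 to 20, 15 to 23, 0 to 28, 0 to 0 and 0 to 2 in the same order. These fits also reran the filter and tested 264 to 269 microRNAs in place of 255. The Xbp1 line fell from 6 calls to 2 without Xbp1-deficient replicate 3 and to 3 without Xbp1-deficient replicate 1 or Xbp1-line wild-type replicate 6 or 8, and the compound line from 15 to 6 without compound-deficient replicate 3 and 7 without wild-type replicate 2. Between the deficient genotypes 19 calls fell to 4, 0 and 9 without Xbp1-deficient replicates 1, 2 and 3 and to 4, 1 and 12 without compound-deficient replicates 2, 3 and 4. miR-9-5p did not pass the filter in a fit of the compound-line groups alone or of the deficient groups alone, so these gave no value. The covariate of library depth was chosen after seeing the data. Thinned to 175165 reads, miR-9-5p was detected in 11 of 16 libraries in place of 13, and the other members in all 16. On total counts 2 of the 3 microRNAs most like miR-9-5p were the same. Depth limits miR-9-5p most: a single read was worth 5.28 CPM in the shallowest library.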
